A study of Mus musculus with 12 samples.

Results

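RNA from natural killer (NK) cells of the mouse lymph node was compared between nodes without tumor and nodes holding diffuse large B cell lymphoma, an aggressive tumor of B cells, with both routes of tumor spread pooled. All 12 libraries of the series entered this comparison. The 4 tumor-free libraries came from C57BL/6J mice, and 4 libraries each came from tumor-bearing nodes of a lymphatic and of a hematogenous model, in which the lymphoma spread by lymph vessels or by the blood. The 2 models were given equal weight: the mean of the lymphatic group and the mean of the hematogenous group were averaged and set against the tumor-free mean. A change counted as common to both routes only where each model, taken alone, had the same sign. What all groups share is the tissue, the sorted cell type and the library protocol. The sources used here do not give the tumor cells, the strain of the tumor-bearing mice, ages, times or the markers of the sort. Samples are numbered within each group and no animals are named, so the p-values rest on the spread among these libraries, part of which may be technical. Both models were set against the same 4 tumor-free libraries, so their fold changes share that noise.

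NK cells are innate lymphocytes that kill infected and malignant cells through perforin and granzymes and secrete interferon-gamma. Their activity is set by a balance of activating receptors, such as NKp46 (Ncr1) with its signalling adaptors, and inhibitory receptors. Type I interferon, made by many cells after infection or damage, acts on NK cells through STAT factors and induces a large set of antiviral genes, many of which carry an interferon-stimulated response element in their promoter. Immediate early genes such as Fos and Jun are transcribed within minutes of receptor signals or stress and are followed by feedback genes that end the signal. Transforming growth factor beta restrains NK cells in tissues and tumors.

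The depth of the libraries ran from 6654215 to 43494812 gene counts. Tumor-free replicate 3 stood apart from its group, with 23674960 counts and reads on 20844 genes at equal depth, against 14168 to 14757 genes in the other tumor-free libraries and 16837 to 21817 in the 8 lymphoma libraries. The share of gene counts from the mitochondrial genome was 1.86% ± 0.502 (SD, n = 4) in the tumor-free and 1.18% ± 0.324 (SD, n = 8) in the lymphoma libraries (exact permutation test over all assignments of the group labels, two-sided p = 0.0202, adjusted 0.0844 over 19 measures). The share of reads assigned to genes ran from 65.7% to 70.7% in the tumor-free, from 67.1% to 72.1% in the lymphatic and from 55.4% to 65.5% in the hematogenous libraries. All 10 defining NK markers were read in each group. Their summed level was 13670 to 15390 CPM (gene counts scaled to a common library size by TMM, the unit of all levels given here) in the tumor-free, 12370 to 15310 in the lymphatic and 8936 to 10670 in the hematogenous libraries. In sorted bulk RNA, fewer cells of a type and less RNA per cell cannot be told apart.

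**Figure D1:**
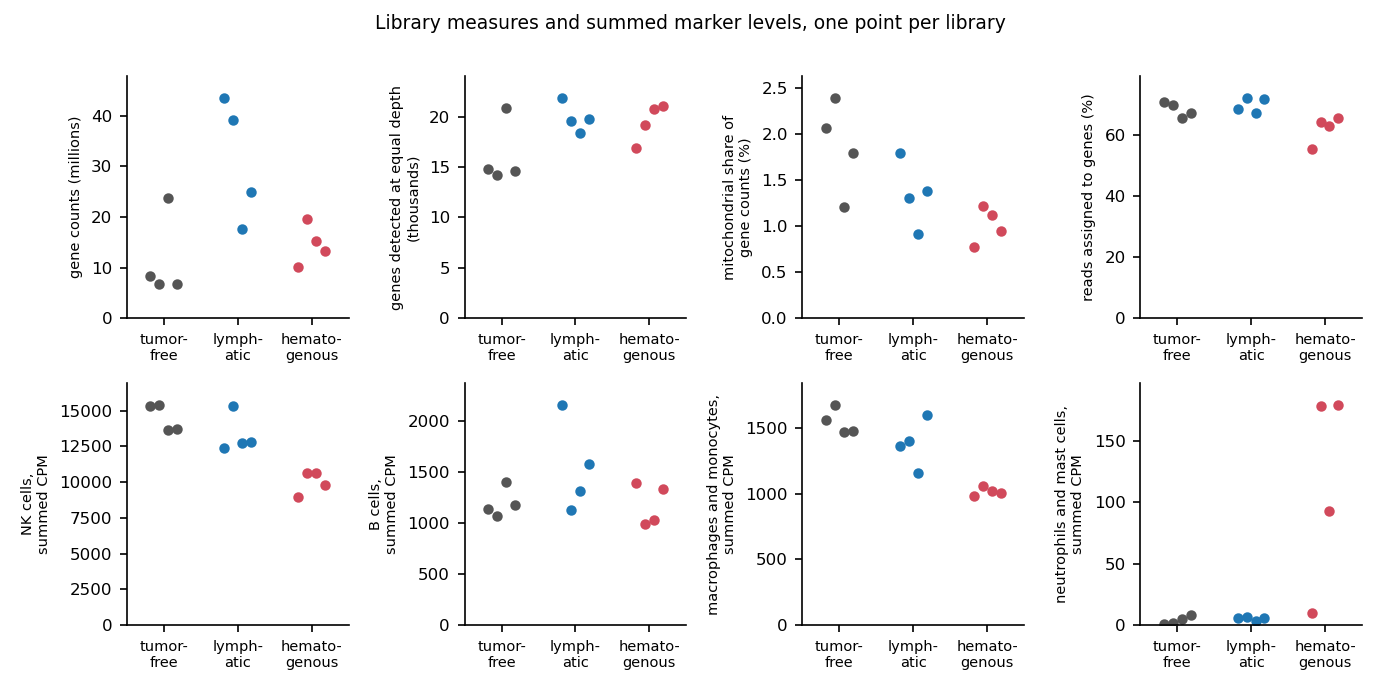
Depth, detection, read assignment and summed marker levels (CPM) in each of the 12 libraries, 1 point per library, grouped as tumor-free, lymphatic and hematogenous. Tumor-free replicate 3 has 23674960 gene counts and the most genes detected of its group, and the hematogenous libraries have the lowest summed NK marker levels.

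Across 16016 tested genes, 1413 (8.82%) changed in the average of both models with the same sign in each, at an adjusted p under 0.05. Of these, 923 (5.76%) were higher and 490 (3.06%) lower than in tumor-free nodes. Another 12 genes passed in the average with opposite signs in the models. Where 2 log2 fold changes are given for a gene without further words, the lymphatic model comes first. Of the 923 rises 361 were at least 2-fold, as were 83 of the 490 falls. The rises take in 124 genes without a count in any tumor-free library, which could only be higher and whose folds have no set size. The sizes of rises and falls are therefore not directly comparable. The median log2 fold change of the common rises was 0.74, with 0.68 in the lymphatic and 0.89 in the hematogenous model, and that of the falls was −0.64, with −0.41 and −0.89. Over all tested genes the median was 0.08 in the average and in each model. The 8 lymphoma libraries lay wholly above the 4 tumor-free ones for 372 of the common rises (2.32% of tested genes) and wholly below them for 153 of the falls (0.955%).

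The stricter demand that a gene pass in each model by itself, in the same direction, left 253 genes (1.58% of tested genes), 206 higher and 47 lower. Of the other common genes, 1027 passed only in the hematogenous model, 102 only in the lymphatic model and 31 in neither alone. Of all common genes, 428 also differed in level between the models, where 8.85% of tested genes did (1417). Among the rises that differed, the level was further from tumor-free in the hematogenous model for 151 genes and in the lymphatic model for 85. Among the falls these numbers were 189 and 3. The split into rises and falls depended on gene length: with the length trend of each library removed, 578 genes were called higher and 861 lower in the average, against 929 and 496 without the correction, so the share of higher calls went from 65.2% to 40.2%. Low genes held many of the rises, since 188 of the 923 had a mean below 5 CPM, as had 14 of the 490 falls, and 124 of the rises had no count in any tumor-free library. Of all tested genes 180 had no count there. They passed the filter through the lymphoma libraries alone, so their direction was fixed. At a mean of at least 5 CPM, 735 rises and 476 falls remained, 7.06% and 4.57% of the tested genes at that level.

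Single libraries moved these counts. With all libraries 1425 genes were called in the average. Without tumor-free replicate 2 the count was 800 (722 of them among the 1425), without lymphatic replicate 4 it was 945 (928 shared), and without tumor-free replicate 3 it was 1939 (1211 shared). The rises numbered 1447 without tumor-free replicate 3, 5.0e+02 (rounded) without tumor-free replicate 2, and between 499 and 611 without tumor-free replicate 4, lymphatic replicate 4 or hematogenous replicate 3. The falls numbered 305 without tumor-free replicate 2 and 324 without lymphatic replicate 1. The genes called in each model numbered 446 without tumor-free replicate 3 and between 134 and 153 without tumor-free replicate 2 or lymphatic replicate 1 or 4. The genes that differed between the models numbered 620 without lymphatic replicate 2 or hematogenous replicate 3 and 811 without hematogenous replicate 1. With every library thinned to 6654215 counts 1348 genes were called, 751 higher and 597 lower.

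**Figure D2:**
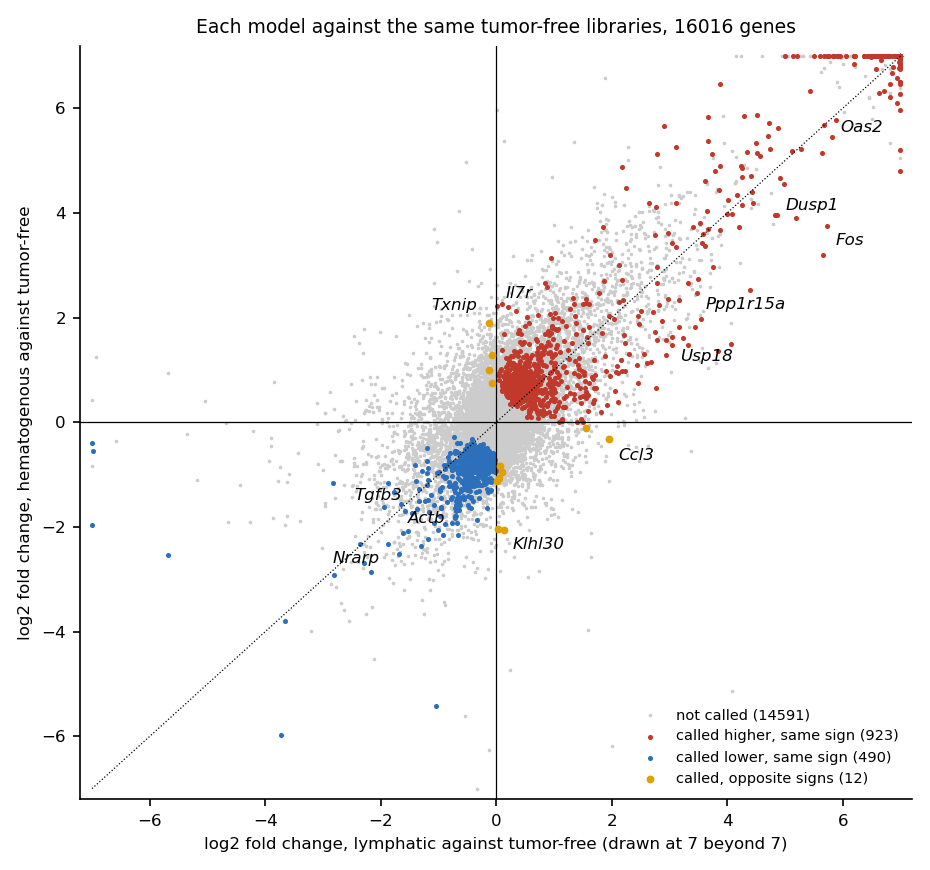
Each point is 1 of the 16016 tested genes, placed by its log2 fold change against tumor-free in the lymphatic model (horizontal axis) and in the hematogenous model (vertical axis), which share the tumor-free libraries. Colors mark the 923 common rises, the 490 common falls and the 12 genes with opposite signs, values beyond 7 are drawn at 7, and the dotted line marks equal change.

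Gene lists of cell states, 27 in all, were read against these background shares. The lists were chosen with earlier results of these data known, so a share above background is a description and not a test. Counts of list members at an unadjusted p under 0.05 are of the average and leave out members with opposite signs in the models. The share of tested members called higher was furthest above the 5.76% background in lists of interferon-induced, immediate early, signal feedback and RNA processing genes. Lists of inhibitory receptor (34.8%), activation (32%), stem-like (26.5%) and tissue residency genes (24%) followed. The share called lower was furthest above the 3.06% background in lists of mitochondrial genome, actin and cell shape, node entry and granule genes. Effector cytokine (25%), NK identity (24.1%), respiratory chain (23.6%), tissue residency (20%) and ribosomal protein genes (19.6%) followed. In both directions some other lists lay above the background by less. Without tumor-free replicate 3, which stood apart, the type I interferon list held 37 rises, the interferon-gamma list 11, the immediate early list 11, the feedback list 14 and the RNA processing list 7. The falls then numbered 24 in the actin, 15 in the respiratory chain, 10 in the mitochondrial and 9 in the ribosomal list.

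**Figure D3:**
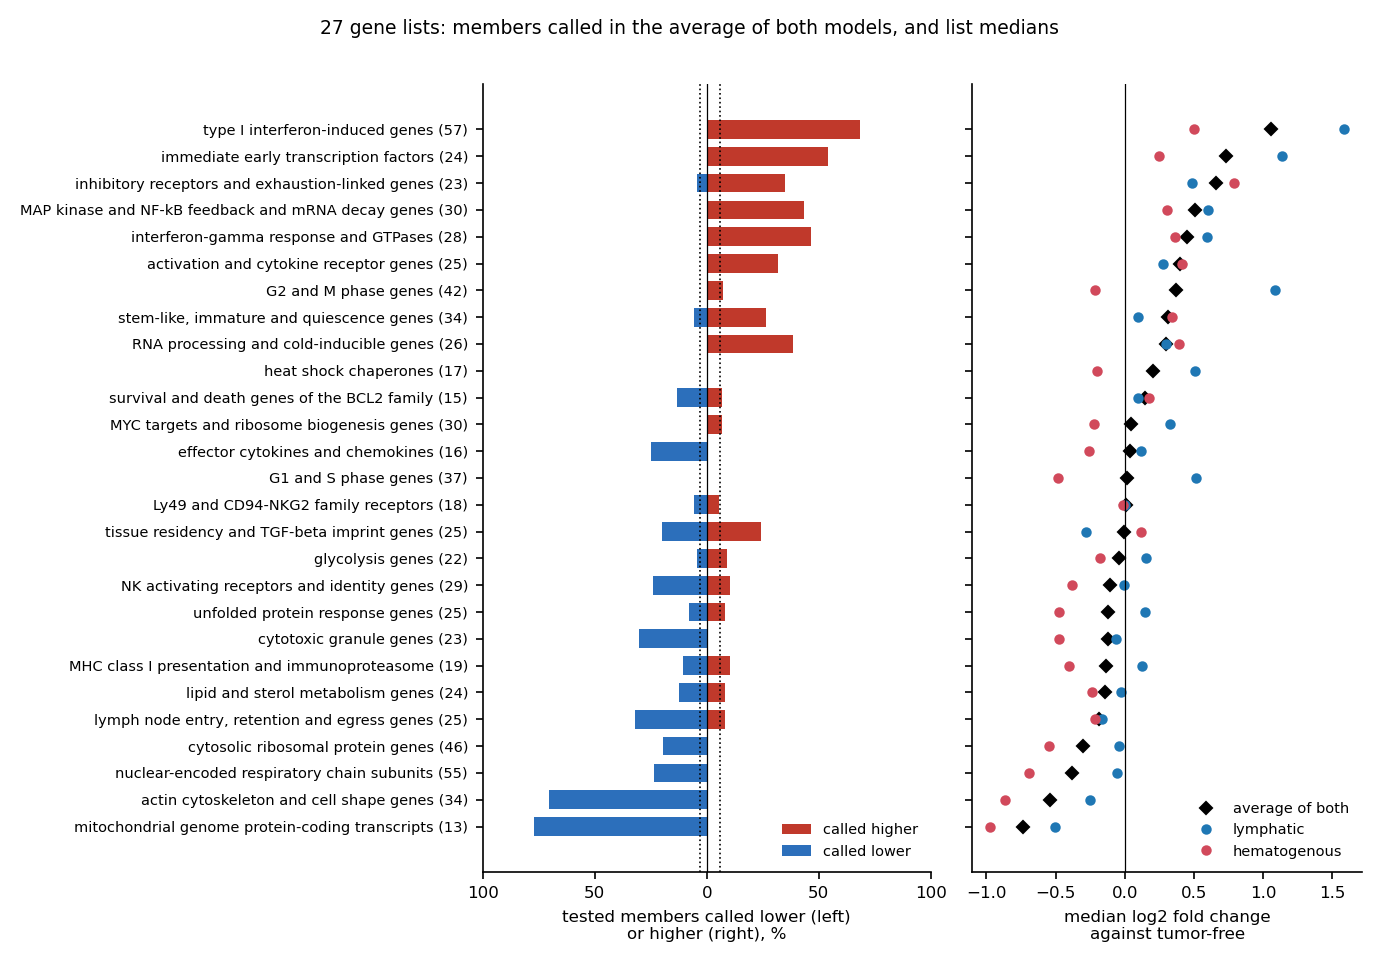
For 27 gene lists (number of tested members in brackets), the left panel gives the percent of members called higher (red) or lower (blue) in the average with the same sign in both models, with dotted lines at the 5.76% and 3.06% of all tested genes. The right panel gives the median log2 fold change of each list in the average (diamond), the lymphatic model (blue) and the hematogenous model (red). The medians of the models lie on opposite sides of 0 for several lists. Among these are the cell cycle, heat shock, unfolded protein response, MHC class I, MYC target, glycolysis, effector cytokine and tissue residency lists.

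Type I interferon target genes were higher in the average of both models, and more of them passed in the lymphatic model. Of 57 tested members 39 rose and none fell in the average, and no member was lower at an unadjusted p under 0.05, with DESeq2 or with voom. The list median was 1.06, with 1.59 in the lymphatic and 0.50 in the hematogenous model, and 40 members were lower in the hematogenous than in the lymphatic libraries. Taken alone, the lymphatic model called 48 members higher and none lower, and the hematogenous model 16 higher and 1 lower. The list medians of hematogenous replicates 1 and 3, at 0.20 and 0.16 above the tumor-free mean, were close to that of tumor-free replicate 4 (0.19) and to the medians of all tested genes in the same libraries (0.11 and 0.22). The list kept this direction under each of the 4 other scalings, with 35 to 38 members called. A stretch of promoter is shown for Slfn5, Ifit1bl1 and Irgm1, since these named members of the interferon lists carry the response element core in the 250 bases before and 50 after the transcription start. The letters searched were GAAANNGAA on both strands, capitals mark each match, and positions count from the start. The sequences are from RefSeq on GRCm38.p6, each 5′ to 3′ on its gene's strand. Slfn5 (chr11:82951922-82952003, plus strand) has matches beginning at −155 and −132, Ifit1bl1 (chr19:34602038-34602185, minus strand) at −192 and −103, and Irgm1 (chr11:48871411-48871475, minus strand) overlapping ones at −30 and −24.
Slfn5: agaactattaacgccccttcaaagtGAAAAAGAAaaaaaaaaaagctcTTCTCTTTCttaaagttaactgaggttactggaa
Ifit1bl1: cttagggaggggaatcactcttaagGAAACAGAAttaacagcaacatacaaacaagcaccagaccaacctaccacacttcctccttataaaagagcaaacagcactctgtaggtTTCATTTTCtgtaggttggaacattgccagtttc
Irgm1: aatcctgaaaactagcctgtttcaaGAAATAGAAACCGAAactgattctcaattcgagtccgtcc

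Promoter windows were held for 10173 tested genes, of which 7.46% had this core. It stood in 24 of the 44 type I interferon list members with a window (54.5%), in 12.3% of 649 common rises and in 4.18% of 359 common falls. A match is a description of these letters and not of binding.

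Slfn5, an interferon-induced member of the Schlafen family that restrains proliferation, stood at 40.1, 29.6, 41.9 and 46.8 CPM in the tumor-free libraries, 177, 171, 211 and 179 in the lymphatic libraries and 80.1, 144, 98.5 and 182 in the hematogenous libraries. Every lymphoma library lay above every tumor-free one, and the average log2 fold change was 1.94 (SE 0.19, adjusted p = 1.2e-05), with 2.22 in the lymphatic and 1.67 in the hematogenous model. Slfn1, another Schlafen gene, rose on both routes, at 2.04 and 1.97. Usp18, which removes the ubiquitin-like protein ISG15 and shuts down interferon signalling, was read at 16.1, 11.4, 17.7 and 30.5 CPM in the tumor-free libraries, 129.6, 158, 189 and 144 in the lymphatic libraries and 39.8, 69.6, 30.1 and 69.7 in the hematogenous libraries. Its ranges met only between tumor-free replicate 4 and hematogenous replicate 3, and its rise of 2.25 (SE 0.26, adjusted p = 7.11e-05) was larger in the lymphatic model (3.04 in the lymphatic and 1.47 in the hematogenous model, adjusted p of the difference = 0.00186). Oas2, an enzyme that senses double-stranded RNA and activates RNase L, was nearly silent in tumor-free nodes. Its levels were 0, 0.148, 0.426 and 0 CPM in the tumor-free libraries, 7.86, 7.84, 21.2 and 9.82 in the lymphatic libraries and 11.3, 6.71, 2.92 and 15.4 in the hematogenous libraries, an average change of 5.63 (SE 0.73, adjusted p = 0.000175), with 5.81 in the lymphatic and 5.45 in the hematogenous model (adjusted p of the difference = 0.788). Ifit1bl1, of the IFIT family that binds foreign RNA, gave 18.6, 19.4, 23.9 and 15.7 CPM in the tumor-free libraries, 87.7, 61.4, 96.4 and 103 in the lymphatic libraries and 45.8, 57.1, 32.3 and 44.1 in the hematogenous libraries, without overlap, at 1.68 (SE 0.19, adjusted p = 5.38e-05). The antiviral effectors Ifit3, Mx1 and Rsad2 rose by 2.42, 1.93 and 2.76. Irf7, an interferon-induced transcription factor gene, was less even, at 1.59 in the lymphatic and 0.21 in the hematogenous model.

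Interferon-gamma response genes and GTPases, which attack the vacuoles of intracellular pathogens, moved the same way. Of 28 tested members 13 rose and none fell, where 1 was lower at an unadjusted p under 0.05 and none with DESeq2 or voom, and the median was 0.45. Without tumor-free replicate 2 or 4 the rises numbered 8. Gbp9, a guanylate-binding protein gene, had 132, 112, 136 and 115 CPM in the tumor-free libraries, 315, 288, 383 and 350.0 in the lymphatic libraries and 235, 236, 230.2 and 308 in the hematogenous libraries. No library overlapped across the divide, and its change of 1.23 (SE 0.12, adjusted p = 1.2e-05) split into 1.43 in the lymphatic and 1.03 in the hematogenous model. Gbp10 began low, at 3.62, 2.96, 2.47 and 2.01 CPM in the tumor-free libraries, 25.3, 28.04, 39.6 and 26.98 in the lymphatic libraries and 5.67, 13.8, 4.25 and 15.1 in the hematogenous libraries, and rose by 2.63 (SE 0.36, adjusted p = 0.000311). Irgm1, which regulates the other immunity-related GTPases and whose promoter is shown above, went from 72.6, 82.7, 79.8 and 88.1 CPM to 155, 165, 205 and 164 and 89.1, 120.1, 97.1 and 116. It rose by 0.74 (SE 0.12, adjusted p = 0.000817) in the average, yet 1.09 at an adjusted p of 6.45e-05 in the lymphatic and 0.39 at 0.0513 in the hematogenous model. Ifng itself, the gene of interferon-gamma, was not a common change: its levels were 56.6, 91.3, 58.4 and 52.8 CPM in the tumor-free libraries, 141, 298, 152 and 172 in the lymphatic libraries and 63.3, 49.1, 46.9 and 80 in the hematogenous libraries, or 1.56 in the lymphatic and −0.11 in the hematogenous model. Gbp and Ifit genes have near-identical copies, so the share of reads given to each one is uncertain.

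MHC class I presentation genes gave no common direction. Of 19 members 2 rose and 2 fell. H2-Q4, a non-classical class I gene, rose by 0.52 (SE 0.12, adjusted p = 0.00934), while Psmb10, an immunoproteasome subunit gene, was −0.73 (−0.14 in the lymphatic and −1.33 in the hematogenous model) and the proteasome activator gene Psme1 −0.48 (−0.06 in the lymphatic and −0.90 in the hematogenous model). Psmb10 was not called with voom, nor Psme1 without tumor-free replicate 2.

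**Figure D4:**
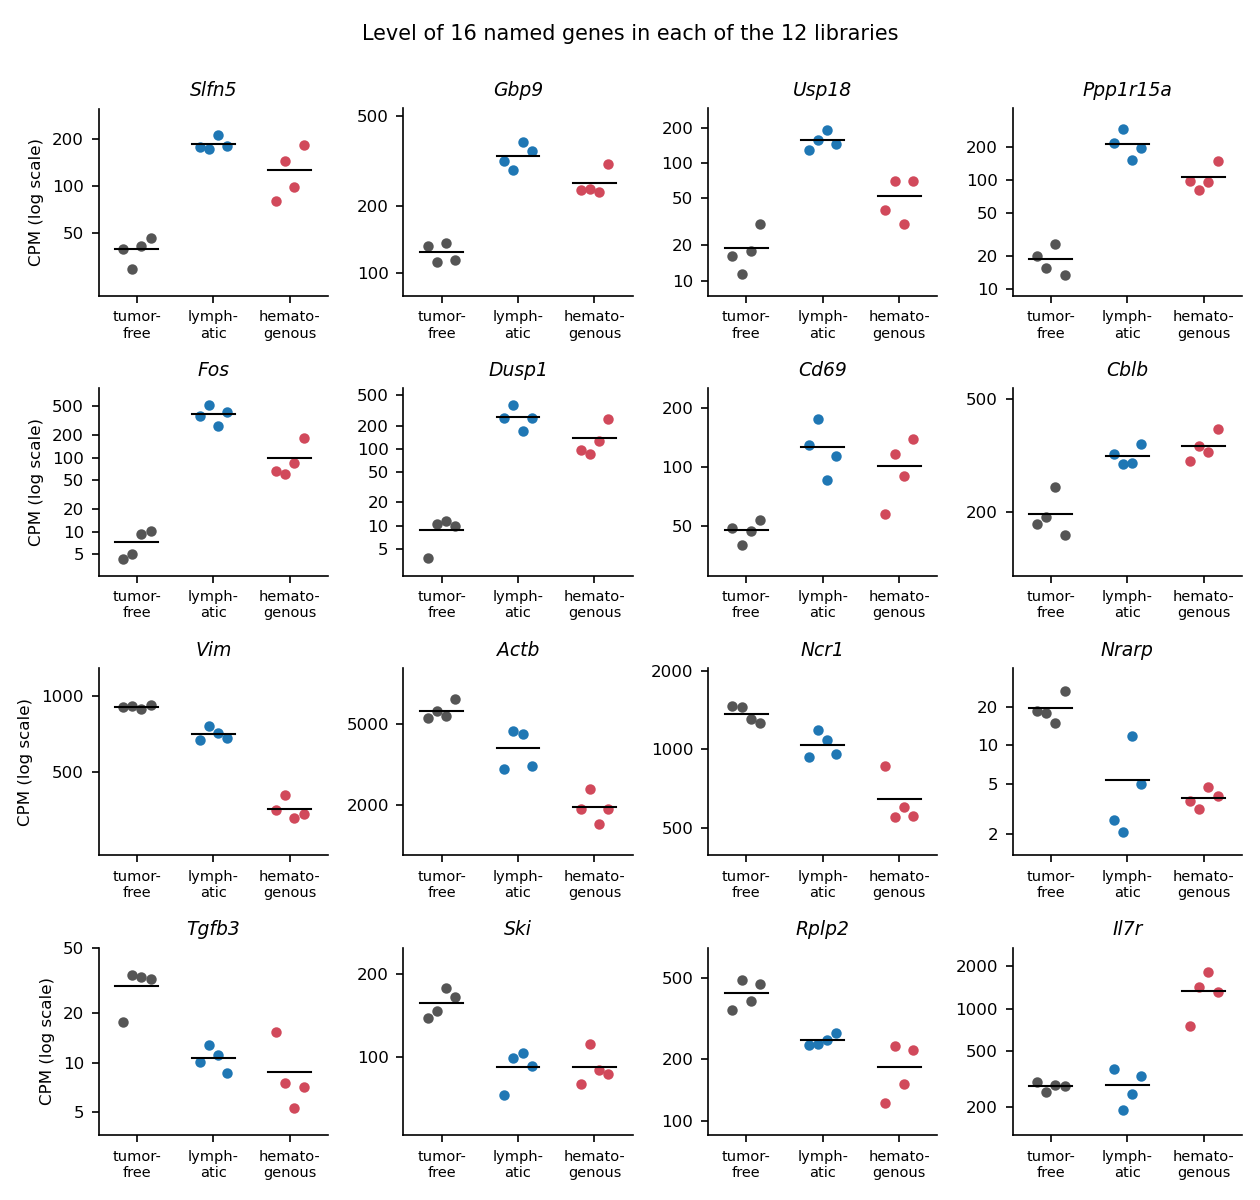
Level in CPM (log axes, a separate scale for each gene) of 16 named genes in each of the 12 libraries, with a black line at the mean of each group of 4. The first 8 genes are higher in both models, the next 7 from Vim to Rplp2 are lower in both, and for Il7r the hematogenous libraries lie above all others.

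Immediate early transcription factor genes and the feedback genes that follow them held several of the steepest common rises. Of 24 immediate early genes 13 rose and none fell, with a median of 0.73 (1.14 in the lymphatic and 0.25 in the hematogenous model). Of 30 feedback genes of the MAP kinase and NF-kB pathways and of mRNA decay, 13 rose and none fell, with a median of 0.51 (0.60 and 0.31). In both lists no member was lower in the average at an unadjusted p under 0.05, with DESeq2 or with voom, and under the 4 other scalings 12 or 13 members were called. Taken alone, the lymphatic model called 15 immediate early genes higher and 0 lower, and the hematogenous model 8 higher and 1 lower. The immediate early median of hematogenous replicate 1, at −0.12, lay inside the tumor-free range of −0.15 to 0.08. With voom 7 of the immediate early genes were called. The promoters of a pair of feedback genes are shown because each holds the full cyclic AMP response element TGACGTCA in the same 300-base window. This was no more frequent among the rises: 3.2% of all windows held it, 3.39% of those of common rises, 3.9% of those of common falls and 0 of 18 windows of immediate early genes. These are Ppp1r15a (chr7:45526248-45526305, minus strand, match at −12) and Dusp1 (chr17:26508583-26508640, minus strand, match at −143).
Ppp1r15a: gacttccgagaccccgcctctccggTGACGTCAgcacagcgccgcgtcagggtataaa
Dusp1: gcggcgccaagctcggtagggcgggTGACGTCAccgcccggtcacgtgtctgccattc

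Ppp1r15a (GADD34), which directs a phosphatase to restart translation after stress, had the smallest adjusted p of all named genes. Its levels were 20.3, 15.5, 26.2 and 13.5 CPM in the tumor-free libraries, 216, 291, 153 and 198 in the lymphatic libraries and 99.0, 81.1, 96.6 and 148 in the hematogenous libraries. The lowest lymphoma library was above the highest tumor-free one, for a change of 2.97 (SE 0.22, adjusted p = 2.57e-07), and the rise was larger in the lymphatic model (3.48 in the lymphatic and 2.46 in the hematogenous model, adjusted p of the difference = 0.00597). Dusp1, a phosphatase that switches off MAP kinases, was at 3.74, 10.4, 11.4 and 9.93 CPM in the tumor-free libraries, 255, 367, 170.3 and 254 in the lymphatic libraries and 95.3, 85.8, 128 and 247 in the hematogenous libraries. That is a rise of 4.41 (SE 0.41, adjusted p = 0.000105), and the models did not pass the test of a difference (4.87 in the lymphatic and 3.95 in the hematogenous model, adjusted p = 0.145). Fos, which forms AP-1 together with Jun proteins, stood at 4.33, 5.03, 9.37 and 10.2 CPM in the tumor-free libraries, 361, 512, 271 and 418 in the lymphatic libraries and 65.1, 60.3, 84.8 and 187 in the hematogenous libraries, again without overlap, at 4.73 (SE 0.41, adjusted p = 7.11e-05). The rise of Fos was 5.72 in the lymphatic and 3.74 in the hematogenous model (adjusted p of the difference = 0.00597). Fosb showed the same order at 6.59 (SE 0.98, adjusted p = 0.00411), with no count in tumor-free replicates 1 and 4, 643, 902, 445 and 470.0 CPM in the lymphatic and 15.97, 18.3, 46.6 and 128 in the hematogenous libraries. With voom the adjusted p of Fosb was 0.341.

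Jun, the partner of Fos, was at 16.1, 45.9, 21.0 and 40.0 CPM in the tumor-free libraries, 246, 291, 240.2 and 311 in the lymphatic libraries and 102, 66.7, 104 and 155 in the hematogenous libraries, and it rose by 2.49 (SE 0.28, adjusted p = 0.000162). The orphan nuclear receptor genes Nr4a1 and Nr4a2, which are induced by receptor signals and restrain lymphocyte activation, rose by 2.60 (SE 0.39, adjusted p = 0.00195) and 2.78 (SE 0.32, adjusted p = 0.000105). Both rose more in the lymphatic model: Nr4a2 by 4.06 in the lymphatic and 1.502 in the hematogenous model (adjusted p of the difference = 0.000232). With voom Nr4a1 was not called. Zfp36, whose protein destroys cytokine mRNAs, was at 115, 110.1, 120.1 and 109 CPM in the tumor-free libraries, 315, 432, 309 and 333 in the lymphatic libraries and 199, 145, 201 and 216 in the hematogenous libraries. It rose by 1.18 (SE 0.12, adjusted p = 2.77e-05) with no overlap. The NF-kB inhibitors Nfkbia and Tnfaip3 rose by 0.95 and 2.67, and Rgs2, a brake on G protein signals, by 1.30. Zfp36l2, a relative of Zfp36, rose too, with 0.71 in the lymphatic and 1.55 in the hematogenous model.

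None of 17 tested heat shock genes passed with edgeR in either direction, where 3 were higher and 0 lower at an unadjusted p under 0.05, 1 was higher with DESeq2 and none with voom. Their median was 0.51 in the lymphatic and −0.20 in the hematogenous model. Among 25 genes of the unfolded protein response 2 rose and 2 fell. Dnajb9, a chaperone of the endoplasmic reticulum, rose by 1.24 and Atf4, the transcription factor of the integrated stress response, by 0.51, while Sdf2l1 was at −1.11. Atf4 passed alone only in the lymphatic model (0.83 in the lymphatic and 0.19 in the hematogenous model). Sdf2l1 did so only in the hematogenous model (−0.34 in the lymphatic and −1.87 in the hematogenous model). Atf4 lost its call without tumor-free replicate 4.

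**Figure D5:**
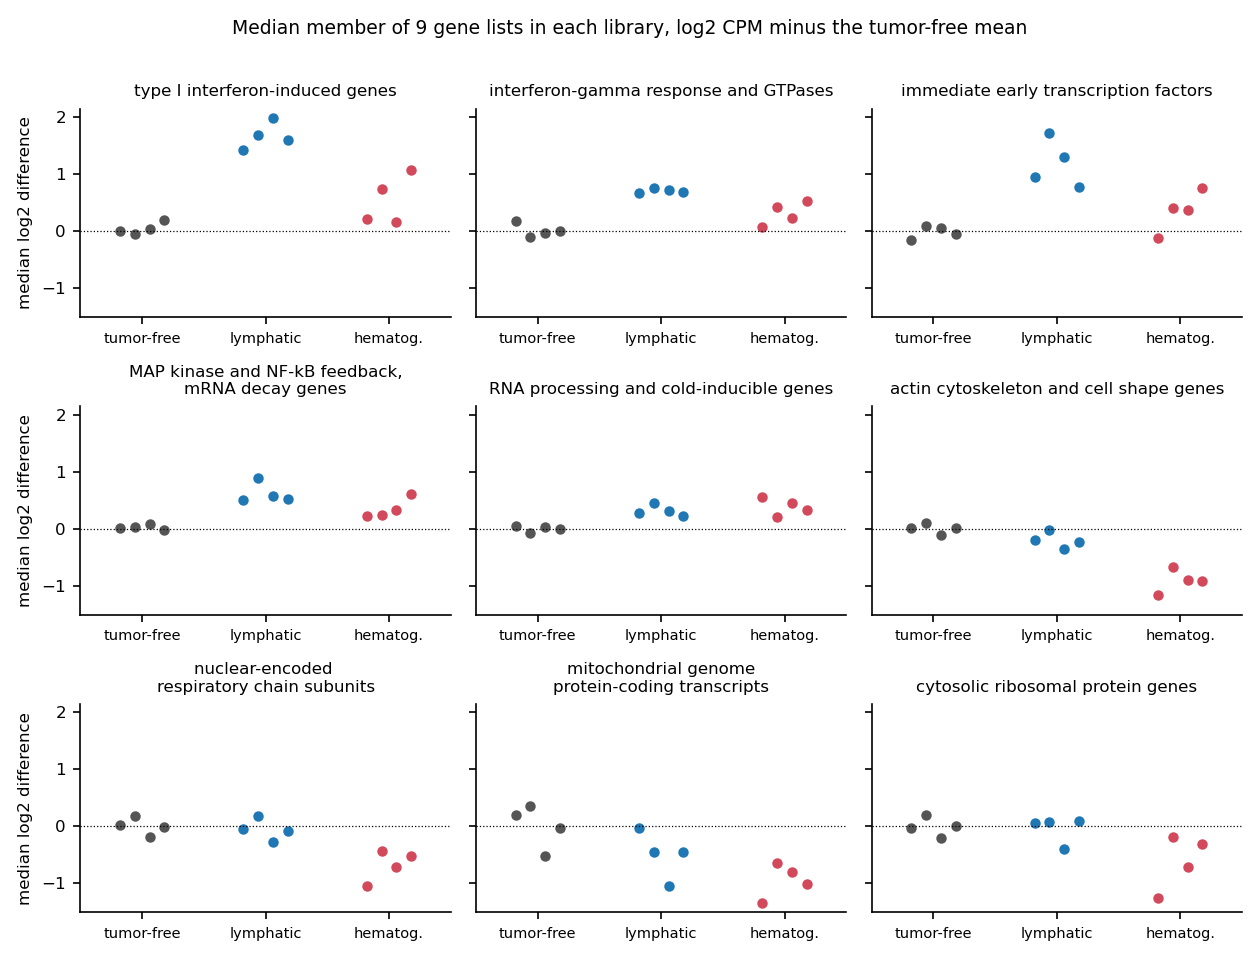
For 9 gene lists, the median over tested members of log2 CPM minus the gene's tumor-free mean, 1 point per library, on a shared vertical axis. The 4 lymphatic libraries stand highest in the interferon and immediate early lists, and the 4 hematogenous libraries stand lowest in the actin and respiratory chain lists. In the mitochondrial list lymphatic replicate 3, at −1.04, lies among the hematogenous libraries.

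RNA processing and cold-inducible genes rose by small amounts. Of 26 tested members 10 rose and none fell in the average, again with none lower at an unadjusted p under 0.05, with DESeq2 or with voom. The medians were 0.29 in the lymphatic and 0.39 in the hematogenous model. By model, the lymphatic libraries gave 8 members higher and 1 lower, and the hematogenous libraries 15 higher and 0 lower. Without tumor-free replicate 2 or 4 the rises numbered 6, and with the gene length trend removed 6. Ddx5, an RNA helicase, was at 1790.5, 1767, 1972 and 1784 CPM in the tumor-free libraries, 2917, 3042, 2667 and 2652 in the lymphatic libraries and 2773, 2270.2, 2705 and 2541 in the hematogenous libraries. The ranges did not overlap, and the change of 0.56 (SE 0.10, adjusted p = 0.00165) was close in both (0.62 in the lymphatic and 0.49 in the hematogenous model, adjusted p of the difference = 0.556). Srsf5, a splicing factor of the SR family, rose by 0.60 (SE 0.10, adjusted p = 0.00126), and Snhg1, a host transcript of small nucleolar RNAs, by 0.88 (SE 0.17, adjusted p = 0.00316). Malat1, a long RNA kept in nuclear speckles, rose by 0.49 and 0.53.

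Activation and cytokine receptor genes rose in 8 of 25 cases and fell in none, where 1 was lower at an unadjusted p under 0.05 and none with DESeq2 or voom. Without tumor-free replicate 2 the rises numbered 3, and without replicate 4 of that group 5. Cd69, an early activation marker that holds lymphocytes in the node, was at 49.2, 40.2, 47.4 and 53.5 CPM in the tumor-free libraries, 129.8, 176, 85.7 and 114 in the lymphatic libraries and 58.0, 117, 90.7 and 139 in the hematogenous libraries. Hematogenous replicate 1 came closest to the tumor-free range but stayed above it, and the change was 1.25 (SE 0.21, adjusted p = 0.00108), 1.41 in the lymphatic and 1.09 in the hematogenous model. Myb, a transcription factor of lymphoid progenitors, rose by 1.16 (SE 0.15, adjusted p = 0.000193). Il2ra, the high-affinity interleukin-2 receptor chain, rose from 12.2, 15.8, 13.8 and 9.93 CPM to 17.2, 33.9, 28.9 and 25.3 and 18.5, 27.7, 30.6 and 50.3, which is 1.16 (SE 0.26, adjusted p = 0.00823) in the average. With voom Il2ra was not called (adjusted p = 0.0979).

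Inhibitory receptors and genes linked to exhaustion rose in 8 of 23 cases, and 1 fell. The rises include Nr4a1 and Nr4a2, which are also on the immediate early list and were given above. Cblb, a ubiquitin ligase that restrains NK cells, was at 181, 191, 244 and 166 CPM in the tumor-free libraries, 318, 293, 296 and 345 in the lymphatic libraries and 300.4, 342, 324 and 391 in the hematogenous libraries. It rose by 0.74 (SE 0.11, adjusted p = 0.000743), with 0.68 in the lymphatic and 0.79 in the hematogenous model (adjusted p of the difference = 0.683). Tigit, a receptor for nectins, rose by 1.51 and 1.77, and Ptpn22, a phosphatase of proximal signalling, by 0.42 and 0.89. Pvrig, another nectin-binding receptor, was the member that fell (−0.58). Ctla4 had no count in any tumor-free library and 170 and 190 counts in the lymphatic and hematogenous groups. It was 33.2-fold higher against a floor of 3 counts over the tumor-free group. That floor leaves out the spread between libraries, so the fold is not a lower bound. Lymphatic replicate 3 and hematogenous replicate 1 had no count of Ctla4 either. Ctla4 is also a marker of regulatory T cells, and its call was lost without tumor-free replicate 2 or 3 and with voom. Pdcd1, which encodes PD-1, was at or below 5.48 CPM in all libraries and was not called (−0.26, adjusted p = 0.911).

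Actin and cell shape genes fell in the average of both models, with the larger part in the hematogenous libraries. Of 34 tested members 24 fell and none rose in the average, where none was higher at an unadjusted p under 0.05, with DESeq2 or with voom. The median was −0.54, with −0.25 in the lymphatic and −0.86 in the hematogenous model, and 26 members were lower in the hematogenous than in the lymphatic libraries. Taken alone, the lymphatic model called 4 members lower and the hematogenous model 31. The list median of lymphatic replicate 2, at −0.02, lay inside the tumor-free range of −0.11 to 0.10. Between 25 and 28 members were called under the 4 other scalings and between 20 and 28 with 1 library left out.

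Vim, which encodes the intermediate filament vimentin, was at 907, 912, 890.1 and 921 CPM in the tumor-free libraries, 673, 762, 715 and 683 in the lymphatic libraries and 356, 407, 329.7 and 343 in the hematogenous libraries. The 3 groups formed 3 separate ranges, and the average change was −0.85 (SE 0.09, adjusted p = 2.77e-05), although the lymphatic model by itself did not pass (−0.36 at an adjusted p of 0.0784 in the lymphatic and −1.34 at 1.15e-06 in the hematogenous model). Actb, the main cytoplasmic actin, was at 5401, 5837, 5520.5 and 6635 CPM in the tumor-free libraries, 2997, 4611, 4470.4 and 3107 in the lymphatic libraries and 1909, 2387, 1610.0 and 1913 in the hematogenous libraries. Its change was −1.10 (SE 0.13, adjusted p = 7.11e-05), and it passed in each model (−0.62 at an adjusted p of 0.0321 in the lymphatic and −1.58 at 1.28e-05 in the hematogenous model). S100a4, a calcium-binding protein of motile cells, was at 44.8, 75.5, 25.3 and 37.1 CPM in the tumor-free libraries, 18.8, 16.4, 12.6 and 22.3 in the lymphatic libraries and 9.55, 11.6, 19.98 and 16.4 in the hematogenous libraries. It fell, at −1.52 (SE 0.25, adjusted p = 0.00104), with −1.37 in the lymphatic and −1.66 in the hematogenous model (adjusted p of the difference = 0.66). Coro1a, Emp3 and Capg were lower, at −0.80, −0.73 and −0.88. Lgals1, the gene of galectin-1, fell in the average at −0.90, but this rested on the hematogenous model (−0.15 in the lymphatic and −1.64 in the hematogenous model). Actg1, the other cytoplasmic actin, is 1 of the 12 genes with opposite signs, at 0.01 in the lymphatic and −1.13 in the hematogenous model.

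Genes of energy metabolism and of the ribosome were lower in the average too, mostly in the hematogenous libraries. Taken alone, the lymphatic model called 0 respiratory chain, 0 mitochondrial genome and 1 ribosomal protein gene lower. The hematogenous model called 35, 10 and 25 of them lower. Of 55 nuclear-encoded respiratory chain subunits 13 fell and none rose (0 higher at an unadjusted p under 0.05, with DESeq2 or with voom), and the median was −0.05 in the lymphatic and −0.69 in the hematogenous model. Ndufa2, a subunit of complex I, was at 60.0, 66.6, 49.97 and 50.7 CPM in the tumor-free libraries, 35.4, 39.0, 31.7 and 42.2 in the lymphatic libraries and 22.3, 28.01, 16.2 and 26.2 in the hematogenous libraries, a change of −0.95 (SE 0.16, adjusted p = 0.00114), with −0.61 in the lymphatic and −1.29 in the hematogenous model. Of 13 protein-coding transcripts of the mitochondrial genome 10 fell and none rose, by the same measures, with medians of −0.50 and −0.98. Only 2 to 5 of them were called without tumor-free replicate 1, 2 or 4, and 1 with voom. mt-Nd4, also of complex I, was at 1189, 1681, 833 and 1177 CPM in the tumor-free libraries, 1015, 761, 574 and 801 in the lymphatic libraries and 466, 669.5, 619 and 521 in the hematogenous libraries, and its change was −0.87 (SE 0.16, adjusted p = 0.00224). Of 46 cytosolic ribosomal protein genes 9 fell and none rose, by the same measures, with medians of −0.04 and −0.55. Of these 3 were called without tumor-free replicate 2, 5 without replicate 1 of that group, 14 or 15 without hematogenous replicate 2 or 4, and 2 with voom. Rplp2, a protein of the ribosomal stalk, was at 348, 490.2, 383 and 465 CPM in the tumor-free libraries, 233, 238, 248 and 268 in the lymphatic libraries and 122, 233, 151 and 222 in the hematogenous libraries, without overlap, at −0.99 (SE 0.14, adjusted p = 0.000374). Ribosomal protein genes have many processed copies in the genome, which makes their counts uncertain. Reads assigned to genes were fewest in the hematogenous libraries, at 55.4% in replicate 1, whose ribosomal median of −1.25 was the lowest of all libraries. The part of RNA quality in these falls was not tested. Glycolysis genes gave 2 rises and 1 fall of 22, and the 1 fall was the glucose transporter gene Slc2a1 (−0.54, −0.47 in the lymphatic and −0.61 in the hematogenous model), whose call was lost without tumor-free replicate 1 or 4 and with voom.

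NK identity and receptor genes were mostly lower where they changed. Of 29 tested members 7 fell and 3 rose in the average. The lymphatic model by itself called 2 higher and 2 lower, and the hematogenous model 3 higher and 13 lower. Ncr1, which encodes NKp46, was at 1463, 1453, 1306 and 1265 CPM in the tumor-free libraries, 933, 1188, 1088 and 957 in the lymphatic libraries and 863, 552, 604 and 559.6 in the hematogenous libraries. No lymphoma library reached the tumor-free range, and the change was −0.74 (SE 0.12, adjusted p = 0.000814), passing alone in the hematogenous model (−0.40 at an adjusted p of 0.166 in the lymphatic and −1.09 at 7.89e-05 in the hematogenous model). Klrb1c, which encodes NK1.1, was at 1259, 1381, 1138 and 1128 CPM in the tumor-free libraries, 839, 939, 732 and 859 in the lymphatic libraries and 629, 990.0, 954 and 850.0 in the hematogenous libraries. It fell, at −0.53 (SE 0.12, adjusted p = 0.00763), with −0.54 in the lymphatic and −0.52 in the hematogenous model (adjusted p of the difference = 0.955). The signalling adaptors Fcer1g and Tyrobp fell, at −0.73 and −0.79, and Id2, a factor NK cells need for their identity, fell too, at −0.84 in the lymphatic and −0.67 in the hematogenous model. Klrk1, the gene of NKG2D, stayed at −0.03 (SE 0.10, adjusted p = 0.897). Eomes, a T-box factor of mature NK cells, was not called in the average (adjusted p = 0.311) and stood at 0.13 in the lymphatic and −0.51 in the hematogenous model. Slamf6, a receptor between lymphocytes, rose by 1.02 (SE 0.15, adjusted p = 0.000509). Of 18 Ly49 and CD94-NKG2 family genes 1 rose (Klra6, 0.61) and 1 fell (Klra3, −0.60), shares near the background of 5.76% and 3.06%. Klra6 lost its call without tumor-free replicate 2, lymphatic replicate 1 or 4 or hematogenous replicate 2 and with voom, and Klra3 without tumor-free replicate 2 or 4. Ly49 genes are near-identical copies, so their counts are uncertain.

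Cytotoxic granule genes fell in 7 of 23 cases and rose in none, where 1 was higher at an unadjusted p under 0.05, 1 with DESeq2 and none with voom. By model, the lymphatic libraries gave 1 member higher and 1 lower, and the hematogenous libraries 1 higher and 8 lower. Gzma, the gene of granzyme A, was at 3691, 3648, 2553 and 2899 CPM in the tumor-free libraries, 2275, 2990.4, 2138 and 2229.6 in the lymphatic libraries and 963, 1719, 1669 and 1217 in the hematogenous libraries, for −0.80 (SE 0.15, adjusted p = 0.00225). The fall of Gzma passed in the hematogenous model alone (−0.41 at an adjusted p of 0.284 in the lymphatic and −1.20 at 0.000218 in the hematogenous model). Prf1, the gene of perforin, had the same pattern at −0.58 (SE 0.14, adjusted p = 0.0155), with −0.11 in the lymphatic and −1.06 in the hematogenous model (adjusted p of the difference = 0.00227). Ctsw, a cathepsin of killer cells, was below the tumor-free range in all 8 lymphoma libraries, at −0.53 (SE 0.10, adjusted p = 0.00379). Tnfsf10, the gene of the death ligand TRAIL, fell, at −0.53 and −0.54. Gzmb, the gene of granzyme B, was widely spread, at 678, 394, 391.6 and 406 CPM in the tumor-free libraries, 599, 1846, 961 and 622 in the lymphatic libraries and 133, 502, 274 and 441 in the hematogenous libraries, and was not called (adjusted p = 0.688). Among cytokine genes 4 of 16 fell. Tgfb3, a transforming growth factor, fell from 17.8, 34.2, 33.2 and 32.4 CPM to 10.1, 12.9, 11.1 and 8.73 and 15.4, 7.52, 5.33 and 7.16, or −1.60 (SE 0.26, adjusted p = 0.0009) in the average, with −1.46 in the lymphatic and −1.74 in the hematogenous model. Tgfb1 was at −0.43 (SE 0.12, adjusted p = 0.0335) and lymphotoxin beta (Ltb) at −0.53 (SE 0.15, adjusted p = 0.0278). The call of Tgfb1 was lost without tumor-free replicate 1, 3 or 4 or lymphatic replicate 1, and that of Ltb without tumor-free replicate 1 or 2, lymphatic replicate 3 or hematogenous replicate 3 and with voom.

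Genes of tissue residency and the TGF-beta imprint went both ways, with 6 rises and 5 falls of 25. Itga1, the collagen-binding integrin CD49a of resident NK and innate lymphoid cells, was at 55.4, 77.7, 65.6 and 58.3 CPM in the tumor-free libraries, 27.6, 15.99, 27.9 and 24.9 in the lymphatic libraries and 30.6, 35.03, 45.7 and 34.3 in the hematogenous libraries. The ranges were separate, and the change was −1.12 (SE 0.16, adjusted p = 0.000445), −1.41 in the lymphatic and −0.82 in the hematogenous model. Ski, a repressor of SMAD factors in TGF-beta signalling, changed evenly, at 139, 146, 178 and 164 CPM in the tumor-free libraries, 72.7, 99.0, 103 and 92.4 in the lymphatic libraries and 79.9, 112, 89.5 and 86.7 in the hematogenous libraries. That is −0.77 (SE 0.12, adjusted p = 0.000682) in the average and the same to 2 decimals in each model (−0.77 in the lymphatic and −0.77 in the hematogenous model). The receptor gene Tgfbr1 rose by 0.40 and 0.77. Of 25 genes of node entry, retention and egress 8 fell and 2 rose in the average. The lymphatic model by itself called none of them in either direction, and the hematogenous model called 3 higher and 10 lower. The common falls took in Selplg, a selectin ligand, at −0.56 (SE 0.11, adjusted p = 0.00399). They also took in the chemokine receptor gene Cxcr3 (−0.43 and −0.58) and S1pr5, which drives NK cells out of the node (−0.48 and −0.57). Ccr2 was at −0.62 (SE 0.11, adjusted p = 0.00128) and rested on the hematogenous model (−0.21 in the lymphatic and −1.03 in the hematogenous model). Cxcr4, which holds cells in bone marrow and node, rose by 0.90 and 1.74.

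Among 34 genes of stem-like, immature and quiescent lymphocytes 9 rose and 2 fell. The rises numbered 2 without tumor-free replicate 2, 5 without lymphatic replicate 4 and 5 with the gene length trend removed. Bach2, a repressor of effector programs, was at 68.2, 42.0, 65.9 and 58.6 CPM in the tumor-free libraries, 104, 84.2, 97.2 and 102 in the lymphatic libraries and 124, 99.5, 104 and 111 in the hematogenous libraries, above the tumor-free range throughout, at 0.81 (SE 0.13, adjusted p = 0.00112), 0.72 in the lymphatic and 0.90 in the hematogenous model. Kit, a receptor of immature lymphoid cells, rose by 0.78 in the lymphatic and 0.79 in the hematogenous model (adjusted p of the difference = 0.998), and lost its call without tumor-free replicate 2. Nrarp, a target and brake of Notch signalling, had the largest fall among the named genes at a mean of at least 5 CPM whose groups did not overlap. It was at 18.7, 18.1, 15.04 and 26.8 CPM in the tumor-free libraries, 2.60, 2.08, 11.8 and 5.02 in the lymphatic libraries and 3.69, 3.18, 4.69 and 4.02 in the hematogenous libraries, or −2.10 (SE 0.37, adjusted p = 0.00168), with −1.88 in the lymphatic and −2.33 in the hematogenous model. Dtx1, another Notch target, was lower as well (−0.69 and −1.45). Il7r, the interleukin-7 receptor, met the rule for a common rise at 1.12 (SE 0.19, adjusted p = 0.00165) although it hardly moved in the lymphatic model: its levels were 303, 257, 289.6 and 284 CPM in the tumor-free libraries, 374, 190.3, 249.6 and 333 in the lymphatic libraries and 758, 1419, 1819 and 1321 in the hematogenous libraries, which gave 0.02 at an adjusted p of 0.986 in the lymphatic and 2.23 at 1.35e-05 in the hematogenous model.

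The sign check removed genes that a plain average would have kept. Txnip, a brake on glucose uptake, passed in the average at 0.89 (SE 0.20, adjusted p = 0.00842) with −0.12 in the lymphatic and 1.90 in the hematogenous model, though not without tumor-free replicate 2. Klhl30 passed at −0.96 (SE 0.19, adjusted p = 0.00454) with 0.14 in the lymphatic and −2.07 in the hematogenous model. Ccl3, an inflammatory chemokine gene, passed at 0.82 (adjusted p = 0.0472) with 1.96 in the lymphatic and −0.32 in the hematogenous model, and lost its call in 20 of 28 other settings. The cell cycle lists also parted. Of 42 G2 and M phase genes 3 rose in common and none fell, by any of these tools or at an unadjusted p under 0.05, while the medians were 1.08 in the lymphatic and −0.21 in the hematogenous model. Of 37 G1 and S phase genes none passed with edgeR, where 2 were higher and 3 lower at an unadjusted p under 0.05, 1 was higher and 1 lower with DESeq2 and none with voom, and the medians were 0.51 and −0.48. Cenpa, the centromere histone gene, did rise in both (1.34 in the lymphatic and 0.95 in the hematogenous model), whereas Mki67 was at 1.41 in the lymphatic and −0.18 in the hematogenous model and was not called in the average, though it was without tumor-free replicate 1, without hematogenous replicate 3 and without a filter on low counts.

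Some of the steepest common changes lay outside these lists. Bend4, at 4.12 (SE 0.75, adjusted p = 0.00219), and Csf2rb, the shared receptor chain of interleukin-3, interleukin-5 and GM-CSF, at 3.44 (SE 0.68, adjusted p = 0.00379), were absent from 2 or 3 tumor-free libraries and read in all 8 lymphoma libraries (5.55, 5.96, 3.30 and 4.38 and 9.45, 15.2, 11.3 and 13.4 CPM for Csf2rb). Ccl9, a chemokine of myeloid cells, was at 0, 0, 1.41 and 0 CPM, then 3.90, 19.7, 5.24 and 2.32 and 4.82, 14.03, 8.43 and 9.35, or 4.13 (SE 0.88, adjusted p = 0.00672). Reads on the small nucleolar RNA gene Snora31 rose by 3.59 (SE 0.73, adjusted p = 0.00466). The libraries were poly(A) libraries, and whether these reads came from the small RNA itself was not tested. With voom Ccl9 was not called. Among falls, Rnaseh2c, a subunit of the enzyme that removes RNA from DNA hybrids, was at 31.5, 41.4, 24.9 and 30.5 CPM in the tumor-free libraries, 11.3, 11.4, 13.5 and 14.2 in the lymphatic libraries and 7.75, 12.97, 9.195 and 15.3 in the hematogenous libraries. It fell in each model (−1.34 at an adjusted p of 0.00411 in the lymphatic and −1.497 at 0.000741 in the hematogenous model) with no overlap. Tmub1 fell as well, at −1.24 in the lymphatic and −1.51 in the hematogenous model, and Znhit2 and Gpr34 were at −1.86 (SE 0.44, adjusted p = 0.0117) and −1.61 (SE 0.39, adjusted p = 0.0152), the latter not called without tumor-free replicate 2. Bcl2l11, the gene of the death activator BIM, rose by 1.08 (SE 0.20, adjusted p = 0.00257), while Bcl2l1, the gene of the survival factor BCL-XL, fell, at −0.87 (SE 0.17, adjusted p = 0.00317), with −0.54 in the lymphatic and −1.20 in the hematogenous model. Insig1, which holds back sterol synthesis, rose by 1.01 in the lymphatic and 1.08 in the hematogenous model. A few genes passed only in the average: Usp30, a deubiquitinase of mitochondria, was at −0.51 in the lymphatic and −0.44 in the hematogenous model, with adjusted p of 0.0828 and 0.0537 in the single models (edgeR) and 0.027 in the average. Its call was lost without tumor-free replicate 2, 3 or 4 or lymphatic replicate 1.

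Markers of other cells were lower in sum than the NK markers. Some of their ranges lay apart between groups, but no sum passed after adjustment, over both models or in either alone. The smallest adjusted p of the exact permutation test was 0.0844. In either model alone, 4 against 4 libraries allow no p below 0.0286 before adjustment. Sums that lay wholly apart could thus fail, as did neutrophil and mast cell markers in the hematogenous libraries (exact permutation test, adjusted p = 0.0905). Not passing therefore does not show that RNA of other cells was absent. The 30 B cell markers were all read in both the tumor-free and the lymphoma libraries, with a summed level of 1069 to 1401 CPM in the tumor-free, 1130 to 2153 in the lymphatic and 986 to 1391 in the hematogenous libraries (exact permutation p = 0.465, adjusted 0.491). Of the 30, 1 rose (Pax5, 1.44 in the lymphatic and 1.23 in the hematogenous model) and 1 fell (Cd37, −0.37 in the lymphatic and −0.64 in the hematogenous model), and the list median was 0.71. The call of Pax5 was lost without tumor-free replicate 1, 2 or 4 and with voom, and that of Cd37 without tumor-free replicate 2. Without tumor-free replicate 3 the B cell list held 6 rises. When the mean log2 level of B cell markers entered the fit, 176 genes were called, among them 24 of the type I interferon, 8 of the immediate early and 4 of the actin list, and none of the RNA processing, mitochondrial or granule lists. That mean lay between −1.98 and 0.34 in tumor-free libraries and between −0.26 and 1.49 in lymphoma libraries, so that B cell RNA and the groups cannot be told apart by it. With B cell and immunoglobulin genes removed 1424 genes were called. Macrophage and monocyte markers, 19 of 21 read in the tumor-free and 21 in the lymphoma libraries, summed to 1470 to 1674 CPM, 1158 to 1598 and 986 to 1059. Most of that sum was Ccr2, which NK cells express. Cd68 was at 4.79, 5.77, 4.64 and 1.58 CPM in the tumor-free, 13.6, 13.6, 10.1 and 13.7 in the lymphatic and 10.4, 12.2, 10.3 and 15.05 in the hematogenous libraries. Neutrophil and mast cell markers summed to 1.17 to 7.77, 3.30 to 6.67 and 9.64 to 179 CPM, with Camp at 0 in all libraries and the high values in hematogenous replicates 2 to 4. Hemoglobin and platelet genes summed to 0 to 17.0, 16.6 to 40.8 and 19.0 to 67.2 CPM, with the platelet genes Pf4 and Ppbp at 0 in all libraries. Clec4a3 of dendritic cells and monocytes, Il23r of innate lymphoid cells and the hemoglobin gene Hba-a2 had no count in tumor-free libraries. Against the same floor of 3 counts over the group they were 44.2-fold, 28.1-fold and 36.3-fold higher in the lymphoma libraries. These folds are not lower bounds either. T cell markers summed to 1857 to 2276, 1989 to 2362 and 2009 to 2436 CPM, and of 20 markers 3 rose and 1 fell in the average. These were Tcrg-C1 (1.23 (SE 0.28, adjusted p = 0.00908)), Cd8a (1.00), Ctla4 and, falling, Lat (−0.54). In the hematogenous model alone 7 were higher and the list median was 0.77, against 0.13 in the lymphatic model. Cd3e was not called in the average (0.83, adjusted p = 0.122), but it was in the hematogenous model (1.30, adjusted p = 0.0226) and in the average without tumor-free replicate 3 (adjusted p = 0.0137). Dendritic cell markers summed to 880 to 1054 CPM in the tumor-free, 1279 to 1655 in the lymphatic and 750 to 1134 in the hematogenous libraries. Stroma and endothelium markers summed to 118 to 131, 162 to 176 and 121 to 140 CPM. In both of these sums the lymphatic libraries lay above the tumor-free ones (exact permutation p = 0.0286, the smallest that 4 against 4 allows, adjusted 0.181). Nearly all of the stroma and endothelium sum was Pecam1. Its means were 116, 168 and 125 CPM in the tumor-free, lymphatic and hematogenous libraries, where the sums had means of 123, 170 and 129. The median log2 fold change of the 4 tested members of that list was −1.51 in the average. Markers of group 2 and 3 innate lymphoid cells summed to 169 to 225, 200 to 291 and 213 to 316 CPM (exact permutation p = 0.0424 for both models, adjusted 0.115). Most of that sum was Kit and Gata3, which moved in opposite directions. Mean levels in the tumor-free, lymphatic and hematogenous libraries were 93.5, 161.2 and 161.4 CPM for Kit and 88.5, 68.7 and 61.9 for Gata3. The part of these cells in the changes above was not tested.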

How the data were processed

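NK cell RNA was sequenced as poly(A) libraries with 120 bp single-end stranded reads, per the labels' protocols. The authors deposited unnormalized read counts, 1 file per library. FastQC 0.11.9, Trimmomatic 0.39, HISAT2 2.1.0, HTSeq 2.0.2 and GRCm39 are named in the submitters' processing notes. For the annotation release and the strand setting of the counting the sources used here give nothing, so reads of near-identical copies and of antisense genes are uncertain. The 5 summary lines of each file were dropped, among them reads on no feature (11.4% to 24.6% of reads). Of 56748 gene IDs 52073 (91.8%) had a symbol in the reference tables, and these held 99.5% of the counts.

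Genes were filtered by group size, scaled by TMM and fitted in R 4.3.3 with edgeR 4.0.16 (robust quasi-likelihood, 1 model for all 12 libraries), and p-values were adjusted by Benjamini-Hochberg over 16016 genes. On simulated counts for the same 16016 genes, 200 of them changed, the fit found 48% of genes changed 2-fold and 67% of those changed 4-fold, and 8 of its 123 calls were false. Alternatives used DESeq2 1.42.0, limma 3.58.1 (voom), other scalings and filters, equal depth, covariates and each library left out. Levels are TMM-scaled CPM, and SEs come from the quasi-likelihood F.

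Members and gene lists were chosen with earlier results of these data known. Named genes were the 8 steepest rises and 8 steepest falls without overlap at a mean of at least 5 CPM, up to 3 called genes of each list by adjusted p, up to 6 genes that differ between models, up to 4 with opposite signs, up to 5 called only in the average, and a set of NK and lineage genes. Other list members named with their values in each model were chosen after their values were seen. Promoter sequences are from RefSeq on GRCm38.p6, and no coordinates were moved between builds.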

Additional observations from a re-analysis of the deposited data

Results flagged for a closer look

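Of 423 groups of 4 libraries checked, 31 held 1 library far from the other 3, where chance gives about 1 in 20. Tumor-free replicate 3 accounted for the gene counts (23674960.0) and the genes detected at equal depth (20844). It also stood apart for Ccl9 at 1.41 CPM, Bend4 at 1.53, Psmb10 at 122, Ddx5 at 1972, Fasn at 362, Pax5 at 15.4, Csf3r at 0.383 and Pecam1 at 125. Tumor-free replicate 1 stood apart for Dusp1 at 3.74 CPM, Tgfb3 at 17.8 and Gzmb at 678. Tumor-free replicate 2 did so for Atp5e at 217 CPM, and tumor-free replicate 4 for Cd68 at 1.58, Hbb-bt at 0.864 and the summed erythroid and platelet markers at 17.0.

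Among the lymphatic libraries, replicate 1 stood apart for Bak1 at 68.3 CPM. Replicate 2 did so for Nr4a1 at 378, Slc3a2 at 162, Actg1 at 891 and the summed NK markers at 15315. Replicate 3 did so for Ctla4 at 0 CPM, Cd68 at 10.1, Tcf4 at 65.1, the summed dendritic cell markers at 1655 and reads not aligned at 8.99%. Among the hematogenous libraries, Gbp9 was at 308 CPM in replicate 4, Klrk1 at 1758 in replicate 3, and in replicate 1 Smc4 was at 284 CPM and reads aligned to several places at 3.85%.

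The models differed, by the edgeR test of hematogenous minus lymphatic at an adjusted p under 0.05, for 57 of 122 named genes, given here as that log2 difference. Among interferon and antigen presentation genes these were Ifit1bl1 at −0.96, Usp18 at −1.57, Gbp10 at −1.62, Irgm1 at −0.71, Psmb10 at −1.18, Psme1 at −0.85 and Ifng at −1.67. Among immediate early, feedback and stress genes they were Fosb at −3.56, Fos at −1.98, Jun at −1.35, Nr4a1 at −2.47, Nr4a2 at −2.56, Ppp1r15a at −1.02, Zfp36 at −0.87, Rgs2 at −0.81, Dnajb9 at −0.85, Sdf2l1 at −1.53 and Atf4 at −0.63. Among NK identity, granule and cytokine genes they were Ncr1 at −0.69, Eomes at −0.65, Fcer1g at −0.59, Tyrobp at −0.82, Slamf6 at 0.64, Gzma at −0.79, Prf1 at −0.95, Ctsd at −0.56, Ctsw at −0.40, Tgfb1 at −0.55 and Ccl3 at −2.28. Among trafficking and immature lymphocyte genes they were Ccr2 at −0.83, Selplg at −0.53, Itgb7 at −0.61, Il7r at 2.21 and Txnip at 2.03. Among genes of metabolism, translation and division they were Pdk1 at 0.62, Gapdh at −1.07, Ndufa2 at −0.68, Ndufa7 at −0.62, Atp5e at −0.86, Slc3a2 at −0.58, Rps26 at −0.83, Rplp1 at −0.80, Scd2 at −0.56 and Mki67 at −1.59. Among cell shape and survival genes they were Vim at −0.98, Actb at −0.96, Actg1 at −1.13, Lgals1 at −1.49, Bcl2l11 at 0.70, Bcl2l1 at −0.66 and Bak1 at −0.92. The remaining differences were Tcrg-C1 at 1.34, Csf3r at 2.76, Pecam1 at −0.43, Cd209b at −4.37, Klhl30 at −2.21 and Eml5 at 1.34.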

How the results depend on the processing

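No named gene called in the average changed sign under the 28 alternatives, while the uncalled Cd79a (−0.22 to 1.03), Klrk1 (−0.20 to 0.03), Lyz2 (−0.46 to 0.18) and Pdcd1 (−1.11 to 0.84) did. Of 3413 values of named genes, 2998 kept their side of the threshold, 411 lost the call and 4 gained it, and 19 of the 122 named genes were called under all alternatives. With the 8 lymphoma libraries as 1 group 494 genes were called (360 higher, 134 lower). With the B cell covariate 176 were called (134 and 42), 175 with the same sign in both models, 60 in each model, 161 in the lymphatic and 956 in the hematogenous model. A test against 1.5-fold called 74 (65 and 9), 74 with the same sign, 36 in each model, 113 in the lymphatic and 225 in the hematogenous model, and 54 between models. At an adjusted p under 0.01 these were 493 (300 and 193), 489, 71, 195, 1109 and 477. DESeq2 called 2153, 849 of them lower, 2127 with the same sign, 458 in each model and 729 in the lymphatic model. Voom called 901, 524 of them higher, 892 with the same sign, and 2923 between models. With the gene length trend removed 578 were higher and 861 lower, and without a filter on low counts 952 were lower. Where a test is stricter or has fewer samples the smaller count follows from its construction, and otherwise the cause was not tested.

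With 1 library left out, the calls in the average ran from 800 to 1939, the higher ones from 5.0e+02 (rounded) to 1447, the lower ones from 305 to 593, and those with the same sign from 795 to 1928. Calls in each model ran from 134 to 446, in the lymphatic model from 255 to 634, in the hematogenous model from 1760 to 3202 and between models from 620 to 1572. With the replicate block 1382 genes were called, but the numbers name samples and do not pair them: correlations of same-numbered libraries ran from −0.073 to 0.059. Depth limits the low genes, since the shallowest library held 6654215 counts.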
